A study of Mus musculus with 2 samples.

Results

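The genes described here belong to the insulin, Akt, FoxO and mTOR nutrient signalling pathway: Pdpk1, Sesn1, Txnip, Irs2, Foxo1, Foxo3, Akt1, Pik3r1, Ddit4 and Cdkn1b. They were found by the gene name given for each gene probe in the array files, with Foxo3 under its older name Foxo3a. Of the 10 genes, 9 had a probe under that name, with 22 probes in all among 41174 gene probes on the array, and no probe was found for Irs2, which was not analysed here. The genes were chosen by their log2 ratios of hyperglycemic mice over the pool, the comparison described here, so these ratios are a description: calls are counted only beside the share over all probes, and no member is given a p-value. Of the 22 probes, 8 are in the authors' value table of log2 ratios: both Foxo1 probes and 1 probe each of Pdpk1, Sesn1, Txnip, Akt1, Pik3r1 and Ddit4. The other 14 probes, including all those of Foxo3 and Cdkn1b, are in the scanner files but not in that table.

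RNA came from the pancreatic lymph node, which drains the pancreas, of female mice of the non-obese diabetic (NOD) strain aged 16 weeks. NOD mice develop autoimmune diabetes. The hyperglycemic group was 2 mice with blood glucose above 500 mg/dl, each labelled with Cy5 on an array of its own. The control on both arrays was the same Cy3-labelled pool of 2 euglycemic NOD mice of the same age and sex, with glucose below 200 mg/dl. The pool is thus 1 control sample, the spread among euglycemic mice was not measured, and a dye effect of a probe cannot be told apart from the difference between the groups. A positive log2 ratio means more signal in the hyperglycemic mouse.

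Insulin binding recruits adaptors such as Irs2 and the lipid kinase PI3K, whose product brings the kinases Pdpk1 and Akt1 to the membrane, where Pdpk1 phosphorylates Akt1. Active Akt keeps the FoxO transcription factors out of the nucleus and relieves inhibition of mTORC1, the kinase complex that drives growth when nutrients are plentiful. In lymphocytes FoxO factors maintain genes of quiescence, homing and survival, and Sesn1, Ddit4 and Txnip act as brakes on growth or glucose uptake.

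The scans were dim in Cy5. Its median signal was 37.7 and 38.2 on arrays 1 and 2 over a background of 35, and the median Cy3 signal was 234 and 81.2 over backgrounds of 31 and 31.5. In Cy3 21.7% and 63.0% of the gene spots passed the scanner software's test for a signal well above background, and in Cy5 14.5% and 16.4%. In Cy3 the array with the higher median signal thus had the lower share passing. A probe that passed in Cy3 on array 2 alone need not have had less pool signal on array 1. Of the 11 T cell markers on the array, 9 were well above background in the pool on both arrays and 7 in both hyperglycemic mice, and of 8 B cell markers 6 and 4 were. Cd3e, Cd4, Cd8b1, Cd79a, Cr2, Cd22 and Blk were not well above background in either hyperglycemic mouse. Of these, Cd3e, Cd4, Cd79a and Blk were not well above background in the pool on array 1 either. All 11 exocrine pancreas markers were well above background in all 4 channel readings, and of 7 islet markers 1, Ins2, was so in the pool on both arrays and 0 in the hyperglycemic mice.

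Pdpk1, Sesn1 and Txnip were each read by a bright probe at more than 4-fold the pool in the authors' ratios. The probes of Foxo1, Akt1, Pik3r1 and Ddit4 in the value table lay between 1.39-fold lower and 1.22-fold higher there. Foxo3 and Cdkn1b were too dim in the hyperglycemic mice to give a ratio. Their probes were not well above background in the pool on array 1 either. In bulk tissue, fewer cells of a type and less RNA per cell cannot be told apart, which touches every ratio given here. In the main fit, made with limma from the scanner signals, 13 of the 22 probes were bright enough to test. There 4 were called higher at an adjusted p under 0.05 (those of Pdpk1, Sesn1, Txnip and Ddit4) and 0 lower. Over 8813 probes 4.77% were called higher and 0.488% lower. At limma's unadjusted p under 0.05, 5 were higher and 1 lower, beside 1716 of the 8813 probes in either direction. In limma's fit of the authors' value table, 3 of the 8 tested probes were called higher (those of Pdpk1, Sesn1 and Txnip) and 0 lower, with 3 higher and 1 lower at an unadjusted p under 0.05. Over all 5072 probes there 25.1% were called higher and 18.4% lower, and 2668 had limma's unadjusted p under 0.05 in either direction. Since this comparison served to pick the genes, nothing is read from these counts. The median ratio of the tested probes was 0.23 in each fit, beside 0.06 for all probes of the value table and -0.03 for all probes of the scanner-signal fit.

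**Figure D1:**
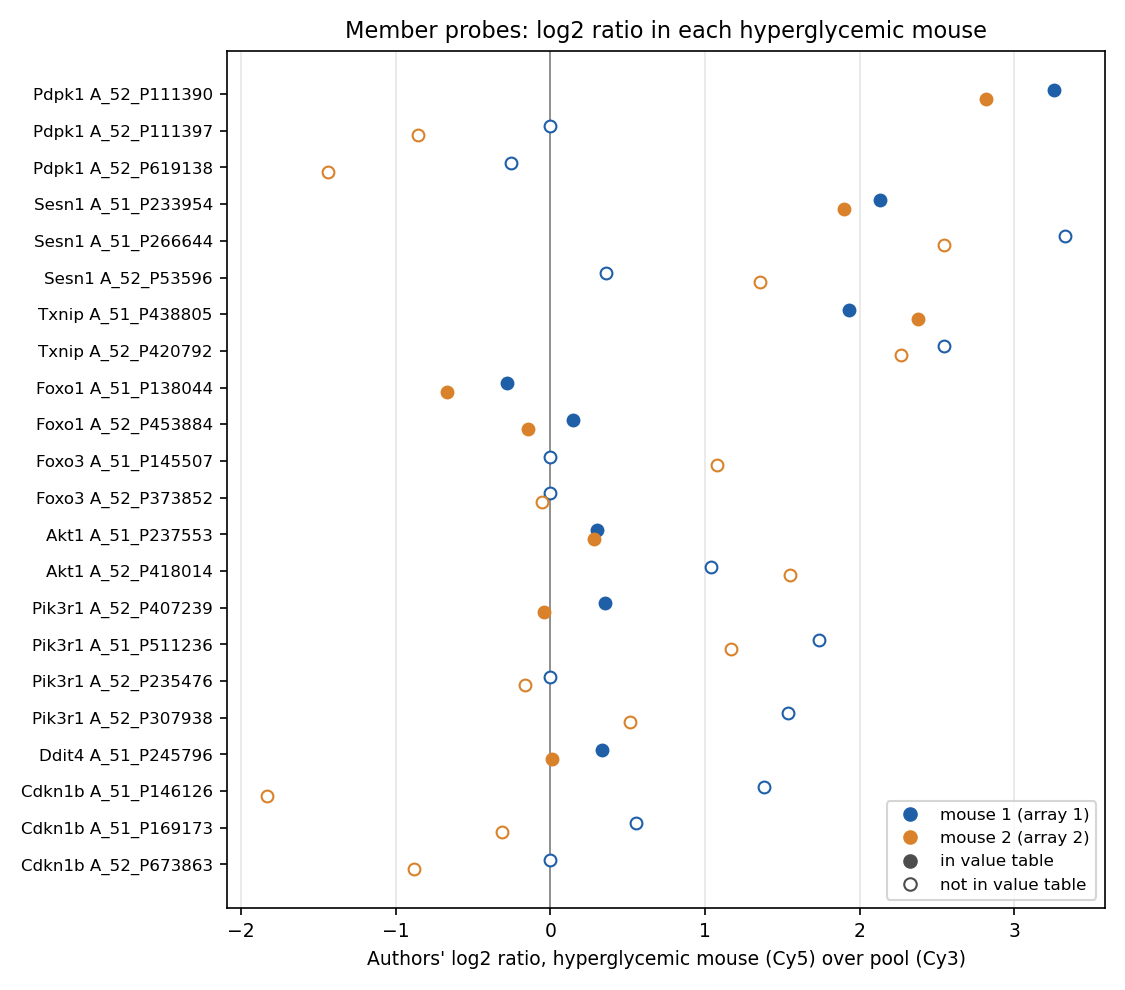
Authors' log2 ratio of hyperglycemic mouse over pool (x axis) for each of the 22 probes (y axis), with mouse 1 in blue and mouse 2 in orange; filled points are probes of the value table and open points are probes outside it. The bright probes of Pdpk1, Sesn1 and Txnip lie between 1.90 and 3.26 in both mice, and open points of 1 gene often lie far from its filled point.

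Pik3r1 encodes p85 alpha, the regulatory subunit that holds and stabilises the catalytic subunit of PI3K. It had 4 probes on mm8 chromosome 13. The probe of the value table, A_52_P407239 (102786510 to 102786569), read 0.35 in mouse 1 and -0.04 in mouse 2, a mean of 0.15 ± 0.28 (SD, n = 2). Its ratios thus lay on both sides of 0. A_51_P511236 (102784708 to 102784767) read 1.74 and 1.17, and A_52_P307938, whose ends lie 1043 bases apart in the genome (102789708 to 102790750) and which therefore crosses an intron, read 1.54 and 0.51. Both of these were well above background in Cy5 on both arrays but in Cy3 on array 2 alone. The fourth, A_52_P235476, was not well above background in Cy5 on either array and read 0.00 and -0.17. In the scanner-signal fit all 4 probes had means between -0.00 and 0.23. With a background-correction offset of 10 in place of the 50 used, the means lay between 0.00 and 0.45. The ratio of Pik3r1 thus depended on both the probe and the processing.

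Pdpk1 is the kinase that activates Akt and several related kinases by phosphorylating their activation loop. Its probe A_52_P111390 (chromosome 17, 23834471 to 23834530, minus strand) had Cy5 signals of 257 and 205 and Cy3 signals of 2814 and 1293. The authors' ratio was 3.26 in mouse 1 and 2.82 in mouse 2, and 3.04 ± 0.31 on average, 8.21-fold higher. In the scanner-signal fit the same probe read 2.39 and 1.97, with a mean of 2.18 ± 0.29, so it was high in both mice under both processings. Under median centring in place of loess its mean was 0.99, where the decile of probes of like brightness had a median of -1.18.

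The other Pdpk1 probes did not read high. A_52_P619138 (23807168 to 23807227) begins 27303 bases from the first probe. Its Cy3 signals of 989 and 597 were well above background, but its Cy5 signals of 41.9 and 40.1 were not. Its authors' ratios were -0.25 and -1.44. With Cy5 dim on both arrays these are not measured ratios, and the scanner-signal values, 0.05 in mouse 1 and -0.21 in mouse 2, lay on both sides of 0. A_52_P111397, which crosses an intron with ends 3636 bases apart (23834876 to 23838511), was not well above background in Cy5 on either array and read 0.00 and -0.86. The high Pdpk1 ratio is that of 1 probe, the only one of the 3 well above background in both channels, and which Pdpk1 transcripts each probe reads was not tested.

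**Figure D2:**
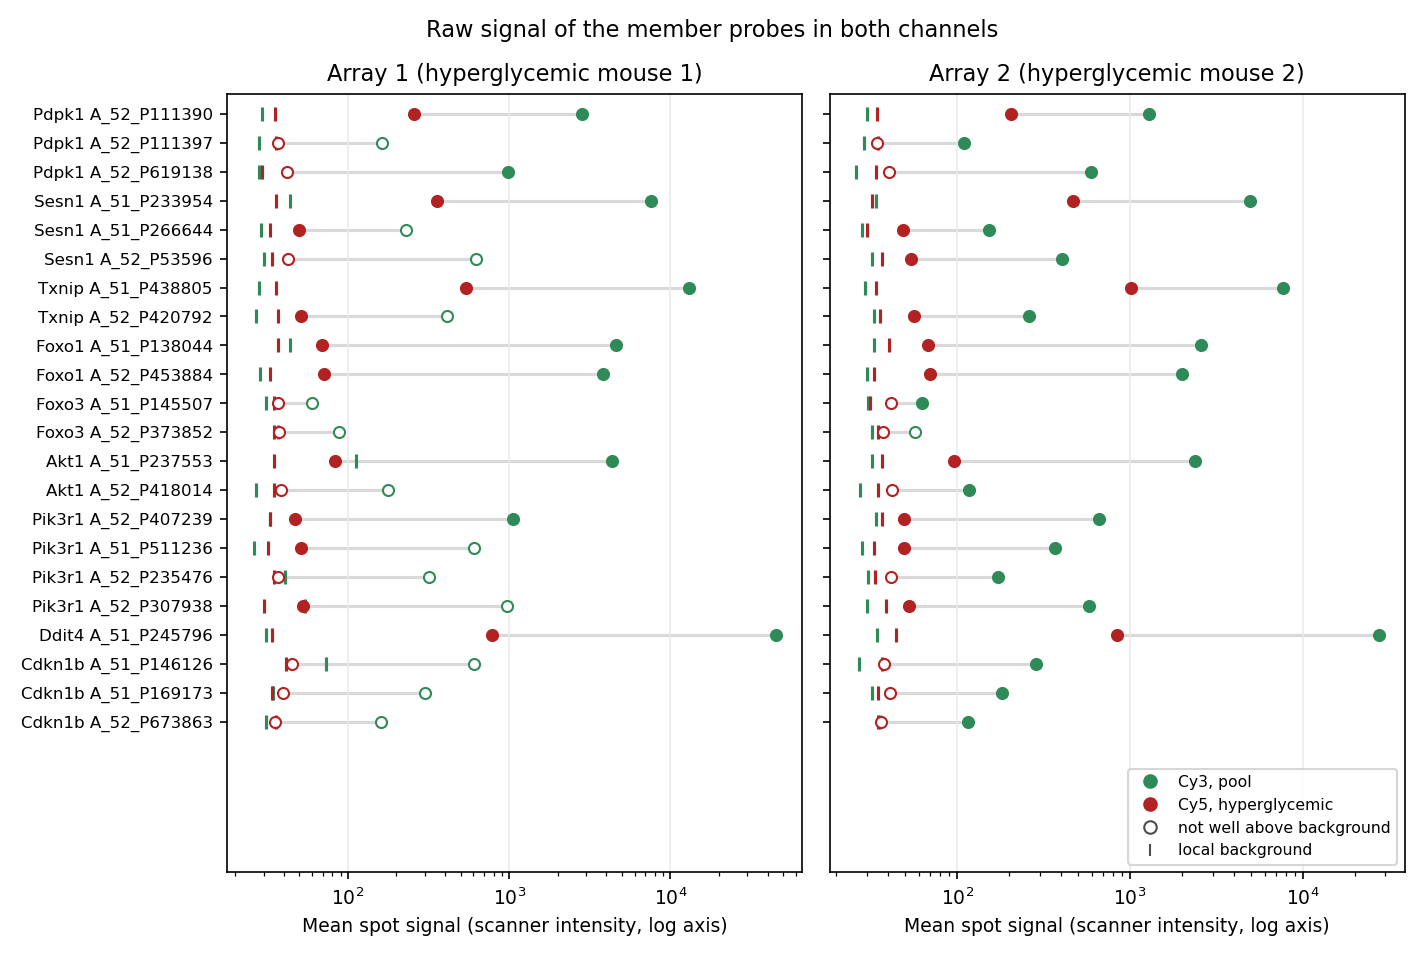
Mean spot signal on a log axis for each of the 22 probes on array 1 (left) and array 2 (right), with the Cy3 pool in green and the Cy5 hyperglycemic mouse in red; open points were not well above background and ticks mark the local background. Cy5 lies left of Cy3 for every probe. All Cy5 points of Foxo3 and Cdkn1b are open, as are their Cy3 points on array 1.

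Akt1 is the central kinase of the pathway. Its probe A_51_P237553 (chromosome 12, 113101676 to 113101735) was printed 10 times on each array, which shows the error of a single spot. On array 1 the authors' ratios of the 10 spots ran from 0.00 to 0.73 with a median of 0.31, and on array 2 from -0.05 to 0.47 with a median of 0.31. The SD among spots was 0.22 and 0.18, and 10 of 10 and 9 of 10 spots lay above 0. The local Cy3 background of these spots ran from 25 to 329.5 on array 1 and from 26 to 35.5 on array 2. Its part in the spread was not tested. These spots share 1 RNA sample per array and are not replicates of the condition. Averaged per array, Akt1 was 0.30 and 0.28 in the 2 mice (0.29 ± 0.02, 1.22-fold higher), and 0.06 and 0.09 in the scanner-signal fit. The Akt1 ratio was thus above 0 in both mice in the authors' values and close to 0 in the scanner-signal fit. A second Akt1 probe, A_52_P418014, read 1.04 and 1.55, with Cy5 not above that limit on either array.

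Foxo1 is the FoxO factor that maintains expression of Il7r and Ccr7 in naive T cells. Both probes on chromosome 3 were well above background in all channels. A_51_P138044 (52434190 to 52434249) read -0.28 and -0.66 (-0.47 ± 0.27) and A_52_P453884 (52437296 to 52437355), further downstream, 0.14 and -0.14 (0.00 ± 0.20). The first was below 0 in both mice and the second straddled 0. The scanner-signal means were -0.38 and -0.10.

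Foxo3, a close relative of Foxo1, could not be measured. Neither probe on chromosome 10 was well above background in Cy5 on either array. In Cy3, A_52_P373852 was not well above background on either array, and A_51_P145507 passed on array 2 alone. A_51_P145507 (41874361 to 41874420) had Cy3 signals of 59.7 and 63.0 and A_52_P373852 (41869156 to 41869215) of 87.8 and 56.7, over backgrounds of 30.5 to 37. The authors' ratios of 0.00 on array 1 for both probes, and of 1.08 and -0.05 on array 2, therefore carry no direction.

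Cdkn1b encodes p27, a cyclin-dependent kinase inhibitor and textbook FoxO target that holds cells in quiescence. All 3 probes on chromosome 6 were dim in Cy5 on both arrays and well above background in Cy3 on array 2 alone. The probe A_51_P169173 (134886778 to 134886836) was printed 10 times, and its spots ran from -0.38 to 1.54 on array 1 and from -1.60 to 0.67 on array 2. Of these spots 6 were above 0 on array 1 and 2 on array 2. The ranges and counts include spots marked as outliers, 2 on array 1 and 1, at -1.60, on array 2. Cy5 signals of all spots lay between 36.3 and 42.2, so no direction is given for Cdkn1b.

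**Figure D3:**
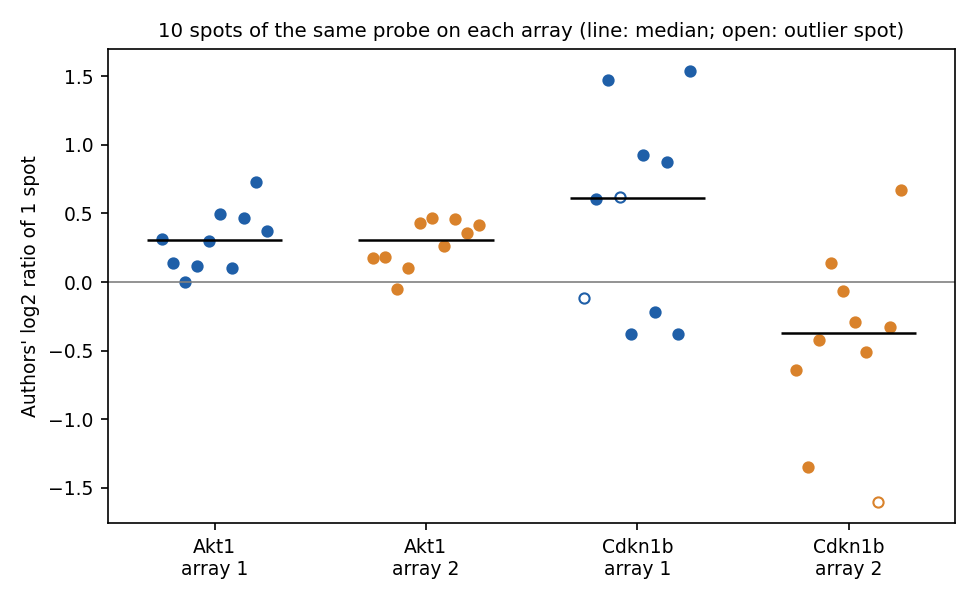
Authors' log2 ratio of each of the 10 spots (y axis) of the repeated Akt1 and Cdkn1b probes on each array (x axis), with lines at the medians and open points for spots marked as outliers. The Akt1 spots scatter with an SD of 0.22 and 0.18, and the Cdkn1b spots, dim in Cy5, with an SD of 0.73 and 0.66. Medians and SDs include the outlier spots.

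Sesn1 belongs to the sestrins, stress-induced proteins that restrain mTORC1 through the GATOR complexes that report amino acid supply. Its probe A_51_P233954 (chromosome 10, 41596609 to 41596668) had Cy5 signals of 359 and 471. The authors' ratio was 2.13 in mouse 1 and 1.90 in mouse 2 (2.02 ± 0.16, 4.05-fold higher), and the scanner-signal values were 2.51 and 2.12. Under median centring the mean was 0.18, where the decile of probes of like brightness had a median of -1.56. The other Sesn1 probes were not measured in both channels on array 1. A_51_P266644, which crosses an intron with ends 4163 bases apart, read 3.33 and 2.54, and A_52_P53596, 903 bases upstream of the bright probe, 0.36 and 1.35. The former was well above background in Cy5 on both arrays and the latter on array 2 alone, and both reached the Cy3 limit on array 2 alone. Their scanner-signal means were 0.35 and 0.16, far closer to 0 than the authors' ratios. These means depended on the background-correction offset: with 10 in place of 50 they were 0.75 and 0.33.

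Ddit4 (REDD1) inhibits mTORC1 under low oxygen, energy stress and glucocorticoids. Its single probe A_51_P245796 (chromosome 10, 59345095 to 59345154) was bright in both channels, with Cy3 signals of 45236 and 27412 and Cy5 signals of 782 and 837. The authors' ratio was 0.33 and 0.01 (0.17 ± 0.23), yet the scanner-signal fit gave 2.98 and 1.36 (2.17 ± 1.15). With median centring of the same scanner signals it was -1.36, where the decile of probes of like brightness had a median of -1.56. In the scanner-signal fit the brightest decile of probes holds the bright probes of Ddit4, Sesn1 and Txnip. It had a median ratio of 0.64 and 360 of the 420 higher calls. The brightest decile of the value table had a median of 0.00. Its dimmest decile, which holds the Pik3r1 probe of that table, had a median of 0.49, with 245 of 507 probes called higher and 11 lower. The part of brightness in the scanner-signal values of Ddit4, Sesn1 and Txnip was not tested. No direction is given for Ddit4.

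**Figure D4:**
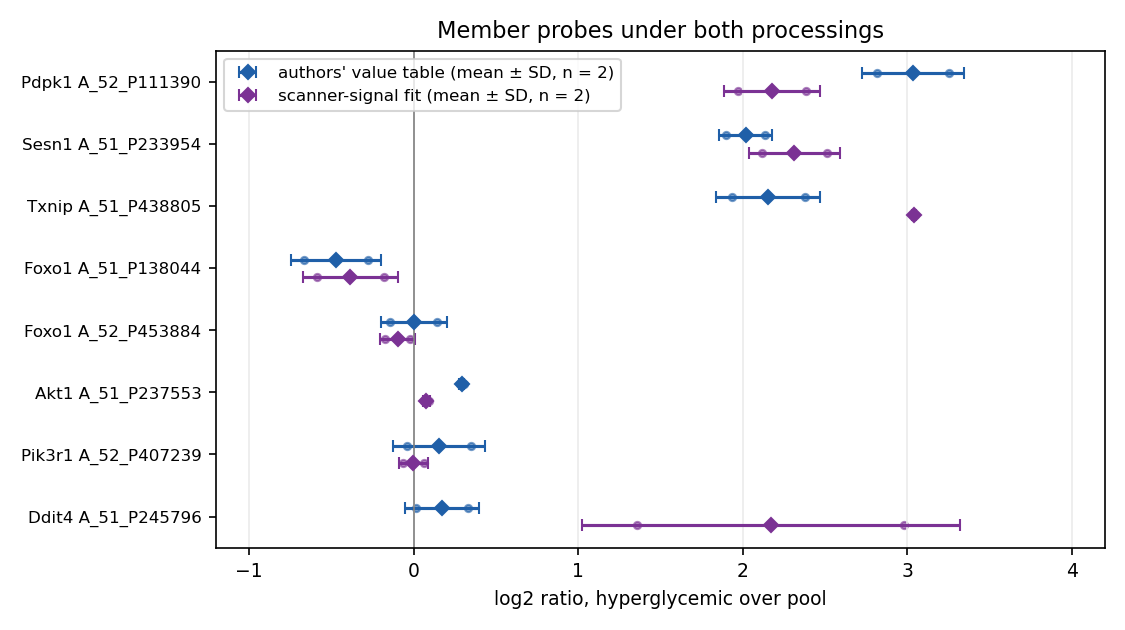
Mean ± SD (n = 2) of the log2 ratio (x axis) of the 8 probes of the value table (y axis) in the authors' values (blue) and the scanner-signal fit (purple), with the value of each mouse as a small point. Pdpk1, Sesn1 and Txnip lie at or above 2.02 in both, and Ddit4 moves from 0.17 to 2.17.

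Txnip is an arrestin-like protein that binds thioredoxin and lowers glucose uptake, and its transcription is driven by glucose through the factors MondoA (Mlxip) and ChREBP (Mlxipl). The bright probe A_51_P438805 (chromosome 3, 96646629 to 96646688) had Cy5 signals of 537 in mouse 1 and 1017 in mouse 2 and Cy3 signals of 13016 and 7697. The authors' ratio was 1.93 and 2.38 (2.16 ± 0.32, 4.46-fold higher), and the scanner-signal values were 3.03 and 3.05. Under median centring the mean was 0.31, where the decile of probes of like brightness had a median of -1.56. The other probe, A_52_P420792, starts 2062 bases upstream, crosses an intron and read 2.54 and 2.27, with Cy5 well above background on both arrays and Cy3 on array 2 alone. On array 1 the second probe was thus not well above background in the pool, though its Cy3 signal was 412 there and 261 on array 2. Its scanner-signal values were 0.12 and 0.51. Their mean was 0.31, and 0.64 with a background-correction offset of 10 in place of 50.

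The Txnip promoter is shown because, alone among the members, it holds a match to the direct repeat searched here for the carbohydrate response element. It is RefSeq's GRCm38.p6 sequence of the 250 bases before the start of the gene (chr3:96557707-96557956, plus strand), with the matches in capitals.
Txnip promoter: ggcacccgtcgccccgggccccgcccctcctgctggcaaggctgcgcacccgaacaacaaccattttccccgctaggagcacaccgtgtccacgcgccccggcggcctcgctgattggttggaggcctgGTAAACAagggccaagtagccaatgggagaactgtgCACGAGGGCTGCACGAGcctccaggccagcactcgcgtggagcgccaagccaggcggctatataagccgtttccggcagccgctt
The longer match lies 85 to 69 bases before the start. It matches the pair, searched on both strands as 2 copies of CACGNG with 5 bases between them. Both copies read in the same direction, and other forms of the element, such as an inverted pair, were not searched. The shorter match, 121 to 115 bases before the start, is the FoxO core GTAAACA. Of 32851 promoter windows of this length, 0.0457% held the pair and 3.17% the FoxO core.

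All 10 genes had at least 1 RefSeq window, 14 in all. Of the other members' windows, 1 of Akt1 held the FoxO core and that of Irs2 held the E-box CACGTG, which 6.02% of all windows hold. No member's window held the palindromic glucocorticoid response element, the p53 motif ACATGTCC or the cyclic AMP response element TGACGTCA, which 0.00913%, 0.527% and 1.55% of all windows hold. The pair itself was found in 15 windows of 14 genes, of which 4 were in the value table. Beside Txnip these were Fnip1, a partner of folliculin in AMPK and mTORC1 signalling, at 1.21 and 1.39 (called higher, but at 0.24 and not called in the scanner-signal fit), A430005L14Rik at -0.11 and -0.21, and Rbbp4, a histone-binding protein, at -0.37 and -0.36 (neither called). The scanner-signal fit held 6 of the 14 genes, among them also Fem1b at -0.25 and Nfkb2 at -0.10, neither called. These 5 were named after their values were seen, and a match of letters is a description and not a binding site.

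Around these members, 123 other textbook genes of the pathway were examined, of which 122 were on the array. In the scanner-signal fit 75 could be tested. There limma called 2 higher, Klf2 and Ulk1, and 0 lower, against 4.6% and 0.481% over 6653 genes. At limma's unadjusted p under 0.05, 9 were higher and 9 lower, beside 1716 of all 8813 probes in either direction. Of 52 that could be tested in the value table, limma called 11 higher and 10 lower at an adjusted p under 0.05, that is in both directions, against 24.7% higher and 18.2% lower over 4060 genes. Their median ratio was 0.10, beside 0.06 for all genes. Of the genes called in the value table, only Klf2 and Ulk1 were also called in the scanner-signal fit.

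FoxO target genes were called in both directions in the value table, 5 of 13 higher and 4 lower, against 24.7% and 18.2% of all genes. In the scanner-signal fit 1 of 20, Klf2, was called higher and 0 lower, against 4.6% and 0.481% of all genes. At limma's unadjusted p under 0.05, 3 were higher and 5 lower, beside 1716 of all 8813 probes in either direction. Higher in the value table were Ccng2, an atypical cyclin of quiescent cells, at 1.62 ± 0.24 (limma adjusted p = 8.37e-04), the mitophagy gene Bnip3 at 1.46 ± 0.12 (limma adjusted p = 9.48e-04), Pdk4, which spares glucose by blocking pyruvate dehydrogenase, the lymphocyte quiescence factor Klf2, and the cyclin-dependent kinase inhibitor Cdkn2d at 0.85 ± 0.06. Pdk4 differed between the mice, at 0.45 and 1.87. Klf2 was at 0.97 ± 0.19 (limma adjusted p = 0.00365) and at 1.54 ± 0.07 in the scanner-signal fit (limma adjusted p = 0.00444), and its second probe read 0.53 and 0.47. Lower were Il7r, the interleukin-7 receptor, at -1.58 ± 0.12 (limma adjusted p = 8.09e-04), the cyclin Ccnd2 at -1.47 ± 0.10, the lymph node homing receptor Ccr7 at -0.73 ± 0.18 and the germinal centre repressor Bcl6 at -0.47 ± 0.15. S1pr1, which FoxO factors maintain through Klf2, was at 0.01 ± 0.06, and Cdkn1a, outside the value table and well above background in Cy3 on 1 array alone, read 1.76 and 1.27 in the authors' ratios and 0.22 ± 0.13 in the scanner-signal fit (limma adjusted p = 0.299).

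The lower FoxO targets include genes of T cells, and Il7r stands on both lists. All 7 T cell markers in the value table were called lower, with a median of -1.21, against 18.2% of all genes there, while in the scanner-signal fit 1 of 9 was called lower, with a median of -0.50. The summed processed signal of the 11 markers was 18307 and 28047 in the pool and 7127 and 12379 in the hyperglycemic mice on arrays 1 and 2. Of 4 B cell markers in the value table, 1 was higher and 2 lower, of 3 myeloid markers 1 was higher and 0 lower, and of 4 stromal markers 2 were higher and 1 lower. From the scanner signals, 0 of 6 B cell, 1 of 6 myeloid and 1 of 5 stromal markers were called higher and 0 lower. Of the 11 exocrine pancreas markers 6 were higher and 1 lower in the value table, with a median of 0.67, against 24.7% and 18.2% of all genes. In the scanner-signal fit 10 were higher and 0 lower, with a median of 4.70. Their summed signals were 1159100 and 1716710 in the pool and 1538870 and 2637340 in the hyperglycemic mice. All 3 red cell markers tested in the value table were higher and 2 of 3 adipocyte markers lower, while in the scanner-signal fit 1 of 3 was higher and 1 of 4 lower. The part of these cell types in the ratios of Txnip, Sesn1, Pdpk1 and the FoxO targets was not tested.

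Among the relatives of Sesn1, Sesn2 was higher at 0.73 ± 0.09 (limma adjusted p = 0.00885), though a second Sesn2 probe outside the table, dim in Cy5, read -0.95 and 0.30. Sesn3 had probes of opposite sign in the value table. The brighter read -0.89 and -0.48 (-0.69 ± 0.29, called lower, limma adjusted p = 0.0162) and the other 0.92 and 0.58, so no direction is given for the gene. In the rest of the mTOR complexes and inputs, Lamtor3 was higher at 0.63 ± 0.04 and Lamtor2, another subunit of the same lysosomal Ragulator scaffold, lower at -0.58 ± 0.00. Tsc2, which inhibits the mTORC1 activator Rheb, was at -0.23 ± 0.04 and Rheb at -0.08 ± 0.09 (limma adjusted p = 0.264 and 0.685). The probes of Tsc1 and Ddit4l were dim in Cy5 on both arrays, and none was well above background in Cy3 on both. Of the 2 Mtor probes, 1 was also dim in Cy5 on both arrays. The other Mtor probe, well above background in Cy5 on 1 array, read 1.70 and 2.81.

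Of the mTORC1 outputs, Ulk1, the kinase that starts autophagy, was higher at 1.24 ± 0.12 (2.36-fold, limma adjusted p = 0.00158; chromosome 5, 111024798 to 111024857). It was also called in the scanner-signal fit at 0.64 ± 0.11 (limma adjusted p = 0.0315). A second Ulk1 probe, dim in Cy5, read -1.44 and 0.21. The translational repressor Eif4ebp2 was lower at -0.72 ± 0.10 and its relative Eif4ebp1 was at 0.31 ± 0.00 (limma adjusted p = 0.144).

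Upstream, the phosphoinositide phosphatases Inpp4b (-0.70 ± 0.26) and Inpp5d (-0.49 ± 0.24) were lower and Inppl1 (0.58 ± 0.09) higher. The leukocyte catalytic subunit of PI3K, Pik3cd, was at 0.20 ± 0.01 (limma adjusted p = 0.320). Insr, Irs1, Foxo4 and Pik3r2 had no probe well above background in Cy5. In Cy3 the Pik3r2 probe passed on both arrays, 1 probe each of Insr and Irs1 on 1 array, and that of Foxo4 on neither. An Akt2 probe well above background in Cy5 on 1 array read -0.38 and 1.58. The other Akt2 probe, dim in Cy5, read -0.37 and -0.35. Sgk1, a kinase that Pdpk1 also activates, was at -0.03 ± 0.05. In the glucose-sensing branch the MondoA gene Mlxip was called higher in the value table at 0.74 ± 0.59 (limma adjusted p = 0.0295). It read 1.15 in mouse 1 and 0.33 in mouse 2. Its scanner-signal mean was 0.08 and not called (limma adjusted p = 0.679). Arrdc4, the closest relative of Txnip in glucose regulation, is outside the value table. Of its 2 probes, A_51_P482908 was well above background in Cy5 on both arrays and in Cy3 on 1. It read 3.46 and 3.13 in the authors' ratios, but its scanner-signal mean was 0.56 ± 0.50 (limma adjusted p = 0.183). The other, A_51_P111612, had the higher mean intensity and was well above background in each channel on 1 array. It read 0.84 and 0.16, with scanner-signal values of 0.02 and 0.04. Arrdc3, dim in Cy5, read 1.17 and 1.40. Thioredoxin Txn1, the partner of Txnip, was at -0.28 ± 0.02 and its reductase Txnrd1 at -0.54 ± 0.43 (limma adjusted p = 0.180 and 0.0547).

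With median centring of the scanner signals Klf2 (-0.77), Ulk1 (-0.34), Sesn2 (-0.07), Lamtor3 (-1.06) and Usp7 (-0.91), the deubiquitinase of FoxO proteins called higher at 0.54 ± 0.07 in the value table, turned below 0. Under that centring the median ratio fell from 1.09 in the dimmest decile of probes to -1.56 in the brightest.

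**Figure D5:**
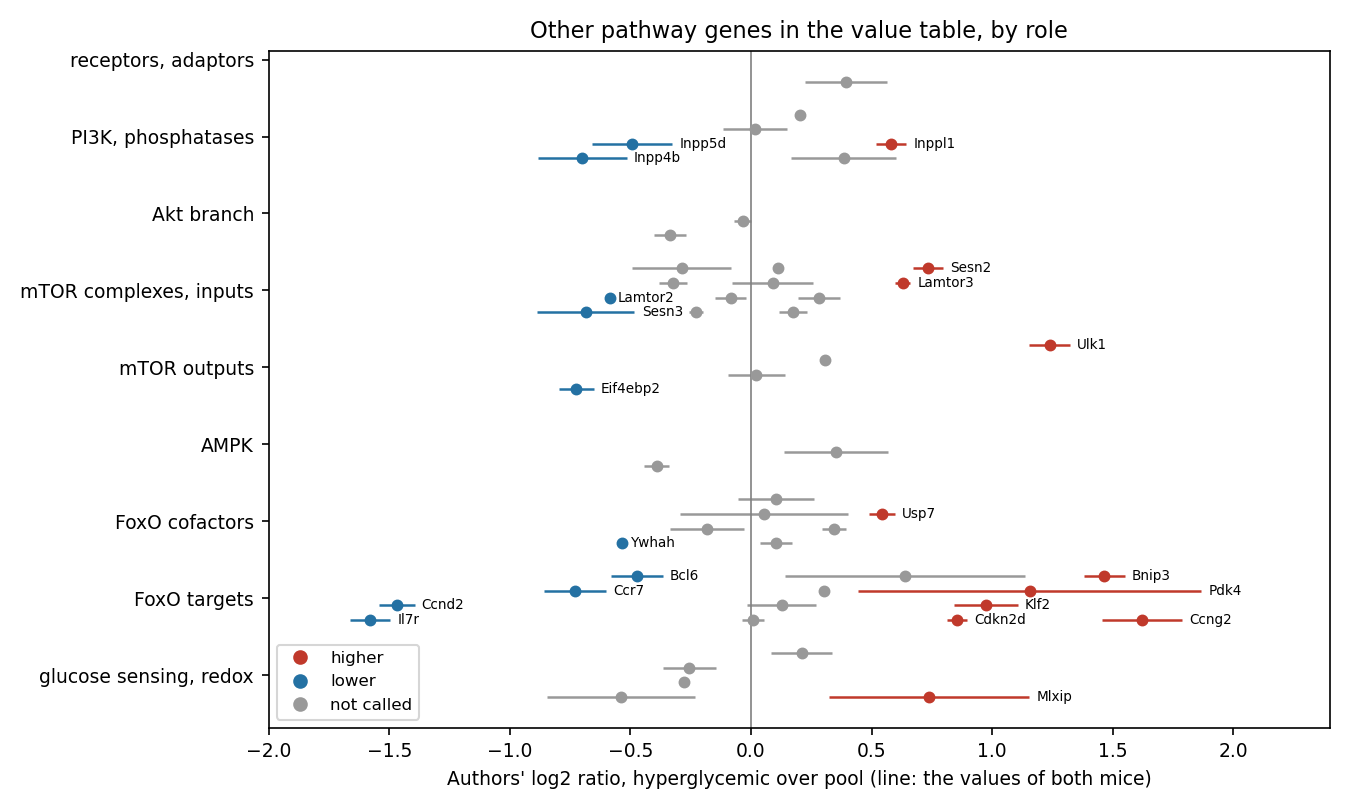
Authors' log2 ratio of hyperglycemic mice over pool (x axis) for the 52 other pathway genes in the value table, by role (y axis); points are means, lines join the values of both mice, and colours give limma's call at an adjusted p under 0.05. The FoxO targets reach from -1.58 (Il7r) to 1.62 (Ccng2), and 31 genes were not called.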

How the data were processed

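Per the file headers, Agilent Feature Extraction (version 10.7.3.1) read the scans. The spot and background columns are deposited scanner intensity values with no normalization. Processed signals are deposited intensity values, background-subtracted, detrended and dye-normalized per the file headers, and the deposited log10 column is their Cy5 over Cy3 ratio. The authors' log2 ratio is that log10 value converted to log2; it equals the deposited value table of log2 ratios for all 5072 gene probes to within 0.001. How the authors chose those probes is not given in the sources used here; 5071 of them were well above background in both channels of both arrays. Flags for well above background are deposited values of 0 or 1 (other).

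For the scanner-signal fit, which is the main one, background was corrected by normexp (offset 50), ratios were normalized by loess (span 0.3), 338 and 184 outlier gene spots were left out, repeated spots were averaged, and a probe was kept if, on each array, Cy3 or Cy5 was well above background. limma 3.58.1 in R 4.3.3 tested mean ratios against 0 with Benjamini-Hochberg adjustment over all probes, or over all genes with the brightest probe of each, after a check on simulated data. The value table was fitted as an alternative. That the text gives the authors' ratio of a probe before its scanner-signal ratio was decided after the values were seen. With 2 arrays there is 1 residual degree of freedom, and the number of arrays limits the precision. The 2 ratio sets come from the same 2 arrays.

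Gene names came from the supplied GRCm38 table (23374 probes by accession, 6733 by symbol, 2919 by synonym, 8148 unmatched), and probe positions are on mm8. The members and lists were chosen with earlier results of these data known. Named were all members, up to 5 pathway genes called in each direction in each fit, and close relatives of the members, of which some are not reported here; Cdkn2d, Bcl6, S1pr1, Lamtor2, Lamtor3, Eif4ebp1, Inpp5d, Inppl1, Mlxip and Usp7 were added after their values were seen.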

Additional observations from a re-analysis of the deposited data

How the results depend on the processing

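No paired analysis was possible because both mice were compared with 1 shared pool. Leaving out 1 mouse leaves 1 array and no test; without replicate 1 all 22 probes kept the sign of their scanner-signal mean, and without replicate 2 18 did. The 4 higher calls among the members became 0 with processed signals, where limma called 0 of all 8813 probes in either direction. There 3396 probes had limma's unadjusted p under 0.05. The higher calls became 1 with no filter, and 7 with no background correction or with median centring. The 0 lower calls became 4 with median centring and 1 with an intensity trend. The 2 higher calls among the other pathway genes became 11 in the value table, 14 with no background correction, 20 with median centring, 8 with an intensity trend, 1 with offset 10, with the filter on both channels or with no filter, and 0 with processed signals. The 0 lower calls there became 10 in the value table, 10 with no background correction, 34 with median centring and 6 with an intensity trend. Ddit4 turned to -1.36 with median centring. The cause of these changes was not tested. Over all probes the scanner-signal fit called 420 higher and 43 lower, the authors' ratios 1274 and 931, and no background correction 1176 and 916. An intensity trend called 665 and 514, median centring 2825 and 3043, and processed signals 0 and 0. Offset 10 called 102 and 13 of 8813 probes. The filter on both channels called 93 and 0 of 5071, and no filter 24 and 0 of 41162. Processed signals moved the median of all probes from -0.03 to -0.18. The weak Cy5 signal limits what can be said of Foxo3, Cdkn1b and every probe near background. The probes of Foxo3 and Cdkn1b were also not well above background in the pool on array 1.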
